A study of Mus musculus with 6 samples.

Results

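The 38 genes described here encode collagens, laminins and other basement membrane proteins, proteoglycans, matrix glycoproteins, enzymes and inhibitors that remodel matrix, and markers of hepatic stellate cells. They were taken by name from a raw count table of 55487 genes, in which each of the 38 symbols matched 1 identifier, and 36 of them passed the filter on low counts that left 14046 genes for testing. Timp1 and Lox did not pass it. The libraries came from whole liver of wild-type mice, which the methods of the study describe as male C57BL/6J mice, fed a normal chow diet and killed at 17 weeks of age. In 1 group, 3 mice had received GalNAc-siNC, a nontargeting siRNA, and in the other, 3 mice had received GalNAc-siRnf10, an siRNA against the mRNA of the E3 ubiquitin ligase RNF10. Both were injected subcutaneously, both carried N-acetylgalactosamine, the sugar that directs a conjugate to hepatocytes through the asialoglycoprotein receptor, and the study's text calls the second conjugate GalNAc-siRnf10-2. Each mouse gave 1 library, and all 6 libraries carry the same batch label. None of these mice received a diet that induces fatty liver or fibrosis, so the values describe matrix gene expression in livers of chow-fed mice, with and without knockdown of Rnf10.

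In the liver, fibrillar collagens form the fibers of the portal tracts, the capsule and, after injury, scars, whereas the space between hepatocytes and sinusoids holds a loose matrix of fibronectin, type IV collagen and small amounts of laminin. Hepatic stellate cells, portal fibroblasts and sinusoidal endothelial cells make most of the collagens and proteoglycans. Hepatocytes secrete plasma fibronectin and are a known source of type XVIII collagen, and TGF-beta is the classical signal that turns quiescent stellate cells into matrix-producing myofibroblasts. Because whole liver was sequenced, fewer cells of a type and less RNA per cell of that type cannot be told apart.

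Rnf10 itself had normalized counts of 3869, 4536 and 4040 in the GalNAc-siNC mice and of 1738, 1820 and 1793 in the GalNAc-siRnf10 mice. The groups did not overlap, and the level with GalNAc-siRnf10 was lower by 57.0% (log2 fold change -1.22, SE 0.071, edgeR adjusted p = 3.29e-09), as the labels would have it. Total counts per library lay between 26854377 and 33058645. The matrix genes took up 0.362 to 0.417% of the counts of a GalNAc-siNC library and 0.285 to 0.293% of those of a GalNAc-siRnf10 library. The library of GalNAc-siNC mouse 1 stood apart: per gene, it differed from the other 2 control mice by a chi-square of 30.6 and 29.8, compared with 10.4 between mice 2 and 3 and 4.71 to 5.40 among the GalNAc-siRnf10 mice. Col18a1 is given with and without this library, and the fits that left out 1 mouse include 1 without it. 

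The level of the matrix genes differed widely. On the scale of normalized CPM per kilobase of gene model (CPM being counts relative to the library total), on which levels of different genes can be compared, Fn1 stood at 201 ± 16.1 (SD, n = 3 mice) in the control livers, and Col18a1 at 149 ± 24.6. The next gene on that scale, Ecm1, had 11.0 ± 0.287. Dcn (8.41 ± 0.389) and Sparc (8.10 ± 0.171) followed, and their spreads overlapped. At the low end were Fbn1 with 0.160 ± 0.0421, Timp1 with 0.0941 ± 0.0819 and Lox with 0.0175 ± 0.0152. Fn1 alone supplied 58.1 to 65.0% of the counts of the matrix genes in control livers and 53.2 to 54.1% with GalNAc-siRnf10. Of the 38 genes, 7 had a mean above 1000 normalized counts over the 6 mice and 10, among them Timp1 and Lox, a mean below 100.

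**Figure D1:**
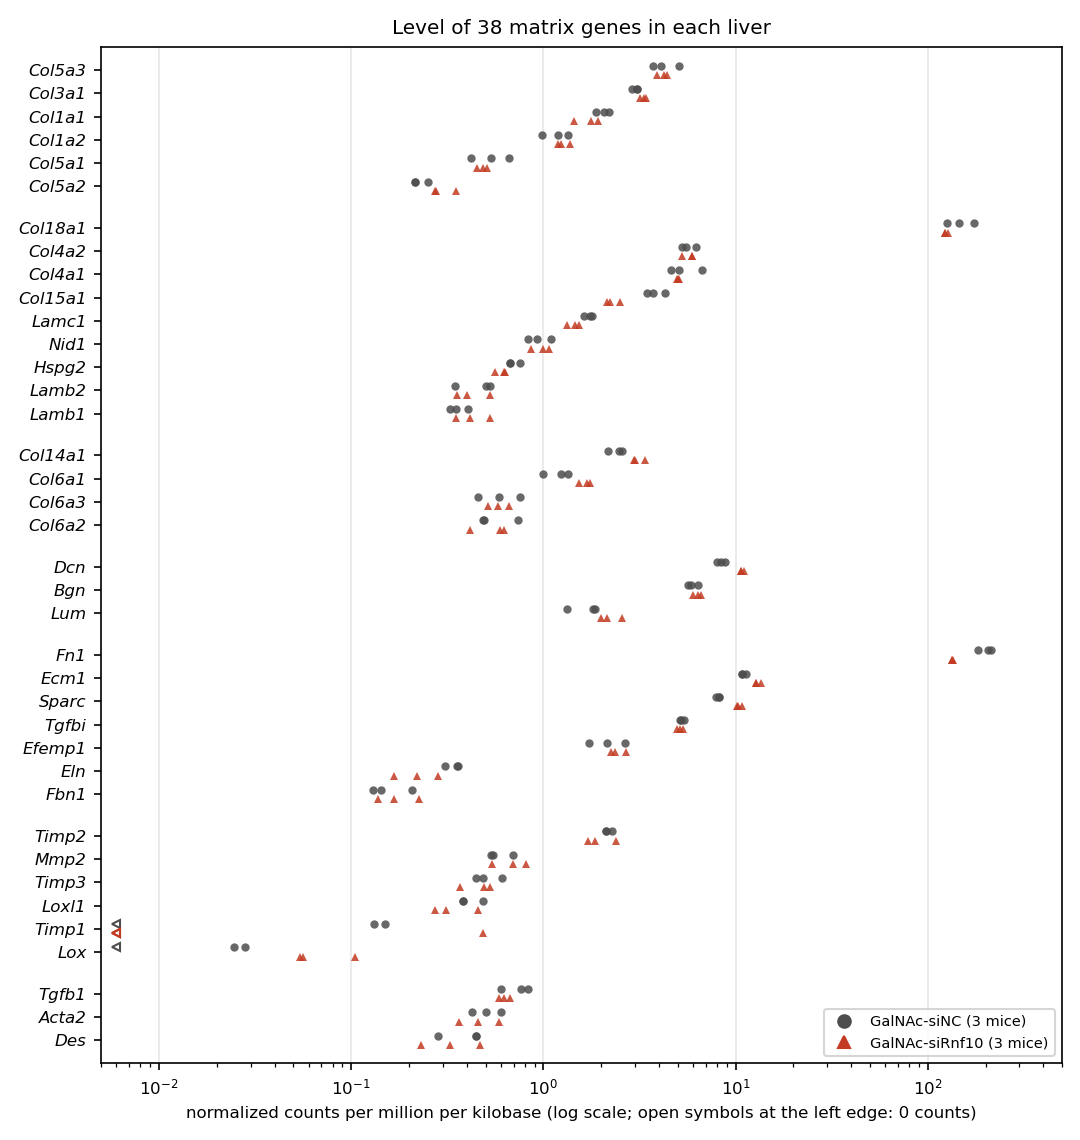
Level of each of the 38 matrix genes, in normalized CPM per kilobase of gene model on a log axis, with genes grouped by role. Circles are the 3 GalNAc-siNC mice, triangles the 3 GalNAc-siRnf10 mice, and open symbols at the left edge stand for 0 counts. Fn1 and Col18a1 lie far to the right of every other gene, and in most genes circles and triangles intermingle.

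Most matrix genes were not called as changed when Rnf10 was knocked down. In the quasi-likelihood test of edgeR, with p-values adjusted over all 14046 tested genes by the Benjamini-Hochberg method, 7 of the 36 (19.4%) were called at an adjusted p under 0.05, beside 14.0% of all tested genes. 5 rose (Dcn, Sparc, Col14a1, Col6a1 and Ecm1), and 6.71% of all tested genes rose. 2 fell (Fn1 and Col15a1), and 7.28% of all tested genes fell. The number that rose was less stable than the number that fell. It was 2 without GalNAc-siNC mouse 3 and 2 without GalNAc-siRnf10 mouse 1, 2 or 3, each time Dcn and Sparc, and with libraries scaled by their totals alone 3 rose and 2 fell. It was 6 when GC content and gene length were corrected for, with Col3a1 added. The values of the 2 groups did not overlap in 13 of the 36 genes (36.1%), beside 32.8% of all tested genes. The median log2 fold change of the 36 genes was -0.033, compared with 0.0022 for all tested genes, and it turned to 0.067 when GC content and gene length were corrected for. Of the 29 genes that were not called, 26 had a log2 fold change within 0.3 of 0. With the 2 most abundant genes left out, the sums of the groups overlapped: the other 36 genes summed to 447 to 498 normalized CPM in the control mice and to 479 to 495 in the GalNAc-siRnf10 mice.

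**Figure D2:**
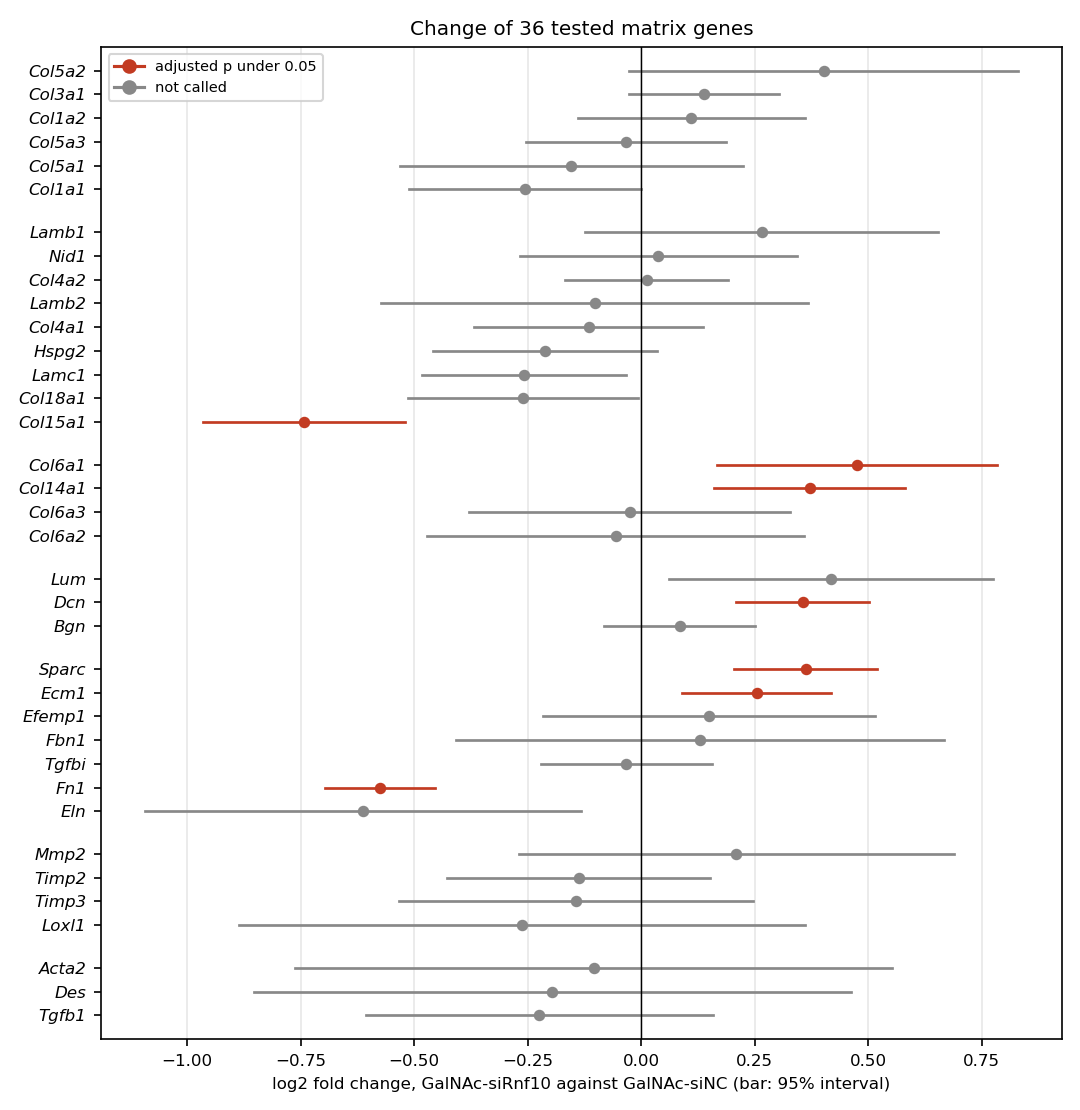
Log2 fold change of the 36 tested matrix genes, GalNAc-siRnf10 against GalNAc-siNC, with its 95% interval from the edgeR fit, grouped by role. The 7 genes called at an adjusted p under 0.05 are drawn in red, 5 to the right of 0 and 2 to the left, with the remaining 29 in gray.

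Fibronectin, the multidomain glycoprotein that links collagen to integrins and circulates in plasma, showed the clearest change. Fn1 (chromosome 1, 71585520 to 71653200, minus strand) had normalized counts of 74130, 71090 and 63310 in the control mice and of 46857, 46434 and 46657 in the GalNAc-siRnf10 mice. Every treated mouse was below every control mouse, and the treated mice lay close together. The level fell by 32.9% (log2 fold change -0.58, SE 0.057, 95% interval -0.70 to -0.45, edgeR adjusted p = 1.96e-06). Fn1 was called in all 6 fits that left out 1 mouse, with log2 fold changes from -0.64 to -0.53, and under all 11 other settings. An exact two-sided permutation test gave p = 0.1, the smallest value that 3 mice against 3 allow, here and for each of the other 6 called genes.

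Among the other elastic fiber and matricellular genes, 2 rose, beside 6.71% of all tested genes. Sparc, a collagen-binding glycoprotein that modulates contact between cells and matrix, had normalized counts of 918, 924 and 888 in control mice and of 1143, 1211 and 1154 in GalNAc-siRnf10 mice. The groups were well separated, and the level was 28.5% higher (log2 fold change 0.36, SE 0.075, edgeR adjusted p = 0.00309). Sparc was called in all 6 fits without 1 mouse.

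Ecm1, a secreted glycoprotein known to hold latent TGF-beta inactive in the liver, had normalized counts of 810, 845 and 805 in control mice and of 1015, 961 and 958 in treated mice. The groups did not overlap, yet the difference was small, at 19.3% (log2 fold change 0.25, SE 0.078, edgeR adjusted p = 0.0380). It was called in 2 of the 6 fits without 1 mouse. The adjusted p was 0.0899 without GalNAc-siNC mouse 3, 0.187 without GalNAc-siRnf10 mouse 1, 0.114 without mouse 2 and 0.108 without mouse 3 of that group. The call was also lost with libraries scaled by their totals alone (edgeR adjusted p = 0.0959), with no filter on low counts (0.0560) and with the replicate block (0.0606).

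A further 4 genes of this group were not called. Eln, which encodes tropoelastin, the core of elastic fibers, had the largest difference among uncalled matrix genes. Its normalized counts were 86.2, 85.6 and 74.1 in control mice and 53.1, 40.2 and 68.2 in treated mice. The groups did not overlap, but the counts were low and varied widely in the treated mice (log2 fold change -0.61, 95% interval -1.09 to -0.13, edgeR adjusted p = 0.0865). Fbn1, which encodes the microfibril protein fibrillin-1, Efemp1, a fibulin, and Tgfbi, a TGF-beta-inducible adhesion protein, had log2 fold changes of 0.13, 0.15 and -0.033, and the values of the groups overlapped in each.

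**Figure D3:**
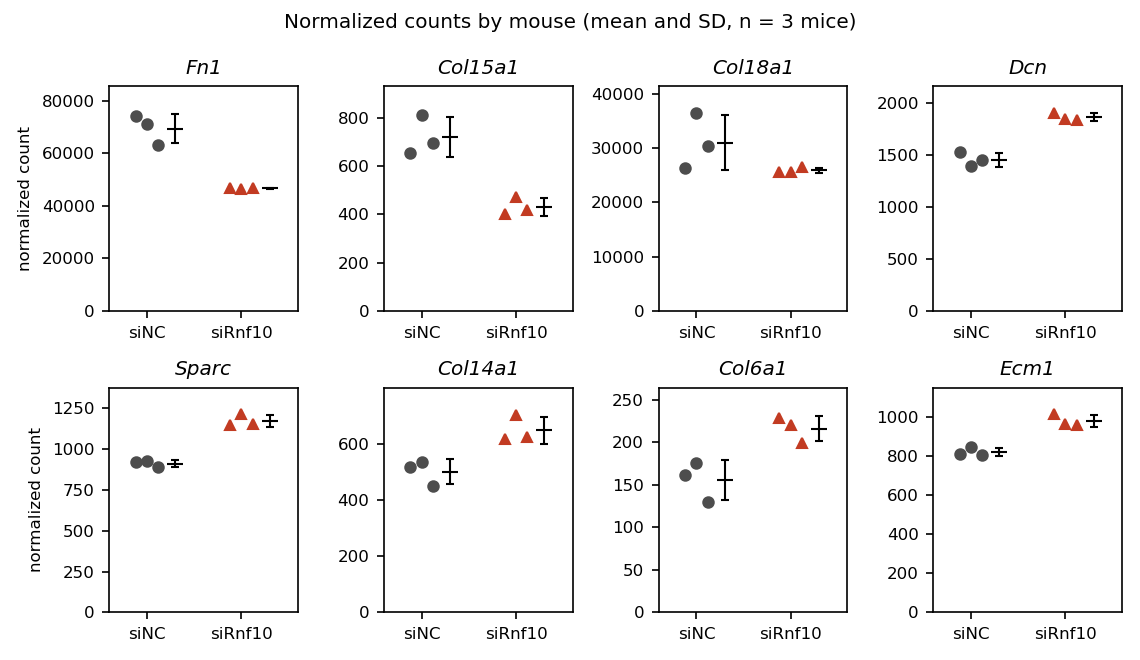
Normalized counts of the 7 called matrix genes and of Col18a1 in each mouse, on linear axes that start at 0. Circles are GalNAc-siNC mice, triangles GalNAc-siRnf10 mice, and the bars beside them give the mean and SD (n = 3 mice). The groups are separate in every panel except that of Col18a1, where control mouse 1 reaches down to the treated mice.

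Basement membranes are sheets built of type IV collagen and laminin, joined by nidogen and perlecan, and types XV and XVIII collagen are proteoglycan collagens at their margin. Of its 9 genes here, 1 fell and none rose, beside 7.28 and 6.71% of all tested genes. Col15a1 (chromosome 4, 47208161 to 47313167, plus strand) had normalized counts of 655, 812 and 697 in control mice and of 402, 471 and 416 in GalNAc-siRnf10 mice. Every treated mouse was below every control mouse. The level fell by 40.4% (log2 fold change -0.74, SE 0.11, 95% interval -0.97 to -0.52, edgeR adjusted p = 0.000108), and the call was made in all 6 fits without 1 mouse, with log2 fold changes from -0.81 to -0.65.

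Col18a1, the source of the fragment endostatin and the closest relative of Col15a1, gave no such call. Its normalized counts were 26280, 36458 and 30304 in control mice and 25562, 25643 and 26442 in treated mice. Control mouse 2 was high, and control mouse 1 lay within the range of the treated mice. The log2 fold change was -0.26 (SE 0.11, edgeR adjusted p = 0.175). Without control mouse 1 it was -0.37 with an edgeR adjusted p of 0.000126, and without control mouse 2 it was -0.13 with an adjusted p of 0.170, so that its size depended on both libraries. It was -0.098 when GC content and gene length were corrected for. It was also called when no filter on low counts was applied (edgeR adjusted p = 9.45e-05) and by limma voom with quality weights (adjusted p = 0.0452).

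The 2 chains of type IV collagen, the network collagen of every basement membrane, showed no difference beyond the spread between mice. Col4a1 had a log2 fold change of -0.12 (95% interval -0.37 to 0.14) and Col4a2 of 0.012 (95% interval -0.17 to 0.19). The laminin chains gave 0.27 for Lamb1, -0.10 for Lamb2 and -0.26 for Lamc1, the gamma chain shared by most laminins. In Lamc1, normalized counts of 430, 437 and 399 in control mice stood against 324, 360 and 375 in treated mice. These values did not overlap, but the test did not pass (edgeR adjusted p = 0.123). Hspg2, which encodes perlecan, likewise had no overlap and no call, with a log2 fold change of -0.21 (edgeR adjusted p = 0.262), and Nid1, which encodes nidogen-1, had a log2 fold change of 0.038.

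The fibrillar collagens, whose triple helices assemble into the fibers stained in fibrotic liver, had no called gene among 6, beside 14.0% of all tested genes. Col1a1, which encodes the more abundant chain of type I collagen and is a common readout of fibrosis, had normalized counts of 366, 429 and 402 in control mice and of 283, 344 and 374 in treated mice. The highest treated mouse lay above the lowest control mouse. The log2 fold change was -0.26 (SE 0.12, 95% interval -0.51 to 0.00065, edgeR adjusted p = 0.188). Its partner chain Col1a2 had normalized counts of 363, 498 and 440 against 458, 440 and 505, with a log2 fold change of 0.11 (95% interval -0.14 to 0.36), and the groups overlapped widely.

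Col3a1, the type III collagen gene, had normalized counts of 897, 840 and 896 in control mice and of 930, 970 and 998 in treated mice. All treated mice were above all control mice, by a margin too small for a call (log2 fold change 0.14, SE 0.078, edgeR adjusted p = 0.275). With the correction for GC content and length it was called, at a log2 fold change of 0.23 (edgeR adjusted p = 0.0290). Type V collagen, which nucleates type I fibrils, was represented by Col5a1, Col5a2 and Col5a3, with log2 fold changes of -0.15, 0.40 and -0.033. Only Col5a2 of these 3 had groups that did not overlap, with normalized counts of 60.9, 71.2 and 61.3 against 99.5, 77.4 and 78.8 (edgeR adjusted p = 0.219).

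Of the 4 genes of beaded-filament and fibril-associated collagens, 2 rose, beside 6.71% of all tested genes. Col14a1 encodes a collagen that decorates fibril surfaces, and had normalized counts of 517, 533 and 451 in control mice and of 616, 701 and 623 in treated mice. The groups did not overlap, and the level was 29.2% higher (log2 fold change 0.37, SE 0.099, edgeR adjusted p = 0.0185). The call was made in 2 of the 6 fits without 1 mouse. The adjusted p was 0.0774 without GalNAc-siNC mouse 3, 0.0510 without GalNAc-siRnf10 mouse 1, 0.130 without mouse 2 and 0.0557 without mouse 3 of that group.

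Col6a1 encodes 1 of the 3 chains that together form type VI collagen. Its normalized counts were 161, 175 and 129 in control mice and 228, 220 and 199 in treated mice. All treated mice were higher, by 39.0% on average (log2 fold change 0.47, SE 0.15, edgeR adjusted p = 0.0382). This call too was made in 2 of the 6 fits, with adjusted p of 0.134 without GalNAc-siNC mouse 3 and of 0.152, 0.126 and 0.0713 without GalNAc-siRnf10 mouse 1, 2 and 3. It was also lost when libraries were scaled by their totals alone (adjusted p = 0.0583). The partner chains were not called. Col6a2 had a log2 fold change of -0.057 (95% interval -0.47 to 0.36) and Col6a3 of -0.025 (95% interval -0.38 to 0.33), and both were 0.16 without GalNAc-siNC mouse 2.

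Small leucine-rich proteoglycans bind fibrils and set their diameter. Dcn, which encodes decorin, also a binder of TGF-beta, had normalized counts of 1526, 1391 and 1453 in control mice and of 1907, 1847 and 1840 in GalNAc-siRnf10 mice. The groups were far apart relative to their spread. The level was 28.0% higher (log2 fold change 0.36, SE 0.069, 95% interval 0.21 to 0.50, edgeR adjusted p = 0.00201), and Dcn was called in all 6 fits without 1 mouse and under all 11 other settings. Lum, which encodes lumican, had normalized counts of 132, 97.0 and 134 against 156, 145 and 186. Its groups did not overlap either, but the test did not pass (log2 fold change 0.42, 95% interval 0.061 to 0.78, edgeR adjusted p = 0.116). Bgn, which encodes biglycan, had a log2 fold change of 0.085 (95% interval -0.081 to 0.25). All 3 log2 fold changes of the group were positive, as were 7066 of all 14046 tested genes. Of the 3, 1 was called higher, beside 6.71% of all tested genes.

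Genes of matrix turnover gave no call among 4 tested, beside 14.0% of all tested genes. Timp1, an inhibitor of metalloproteinases that is classically induced in fibrosis, had 4, 0 and 4 counts in the control libraries and 0, 0 and 12 in the treated libraries, so that it could be neither tested nor ordered. Lox, which encodes the collagen cross-linking enzyme lysyl oxidase, had 4, 0 and 4 counts against 7, 8 and 14, and was likewise not tested. Low counts were mostly even: between 62.7 and 64.8% of the counts from 1 to 20 in a library were even numbers, compared with 49.5 to 50.8% of those from 101 to 1000, as when both mates of a read pair are counted. Whether they were is not given in the sources used here, and a count of 4 may stand for fewer fragments than that. Timp2 and Timp3, inhibitors that the resting liver also makes, had log2 fold changes of -0.14 and -0.14. Timp3 shares 1733 bases of exon with the antisense gene Syn3, which had 13 to 27 counts against 79 to 169 for Timp3. Loxl1, a cross-linking enzyme of elastic fibers, had a log2 fold change of -0.26 and Mmp2, which encodes gelatinase A, of 0.21, and both had overlapping groups.

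The 3 stellate cell and TGF-beta genes gave no call either, beside 14.0% of all tested genes. Acta2, which encodes alpha-smooth muscle actin, the usual marker of activated stellate cells, had normalized counts of 27.9, 39.2 and 32.6 in control mice and of 23.7, 38.2 and 29.8 in treated mice. The groups overlapped almost fully, and the 95% interval of the log2 fold change of -0.10 ran from -0.76 to 0.55 (edgeR adjusted p = 0.868). The values therefore do not exclude a change of Acta2 anywhere within that interval. Des, the intermediate filament of stellate and muscle cells, and Tgfb1, the ligand, had log2 fold changes of -0.20 and -0.22 with overlapping groups. Timp1, Acta2, Col1a1 and Fn1, together with Ccn2, the gene of connective tissue growth factor, are fibrotic genes that the study followed in its disease models. In the chow-fed mice described here, Fn1 was called lower and Ccn2 was called higher. Ccn2, which is not among the 38 genes, had normalized counts of 41.8, 72.2 and 44.5 in control mice and of 130.0, 97.5 and 104 in treated mice. Every treated mouse was above every control mouse (log2 fold change 1.07, SE 0.23, edgeR adjusted p = 0.00436).

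Partner chains of 1 collagen, and the related genes Col15a1 with Col18a1 and Dcn with Lum, were also compared within each mouse. The measure was the ratio of their levels per kilobase, which does not depend on the scaling of the libraries. The 7 pairs were chosen with their values known, and with 3 mice against 3 an exact two-sided permutation test cannot go below p = 0.1. After adjustment over the 7 pairs, the smallest value found with this test was 0.233. Type I collagen is built of 2 alpha 1 chains and 1 alpha 2 chain, but the ratio of levels cannot be read as that of chains. Its size rests on gene model lengths of 6563 bases for Col1a1 and 12426 for Col1a2. The raw counts in control mice were 420, 416 and 407 for Col1a1 and 417, 483 and 445 for Col1a2. The ratio of Col1a1 to Col1a2 was 1.91, 1.63 and 1.73 in control mice and 1.17, 1.48 and 1.40 in treated mice, lower in every treated mouse (exact permutation p = 0.1, adjusted 0.233). The ratio of Col6a1 to Col6a3 was 2.11, 1.79 and 2.17 against 3.41, 2.54 and 2.63, higher in every treated mouse (exact permutation p = 0.1, adjusted 0.233). The ratio of Col6a1 to Col6a2 overlapped between the groups, by the margin between 2.53 in control mouse 1 and 2.47 in treated mouse 3 (exact permutation p = 0.2, adjusted 0.35). Col15a1 relative to Col18a1 was 0.0275, 0.0246 and 0.0254 against 0.0174, 0.0203 and 0.0174 and did not overlap. The ratios of Col4a1 to Col4a2, of Col6a2 to Col6a3 and of Dcn to Lum overlapped.

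**Figure D4:**
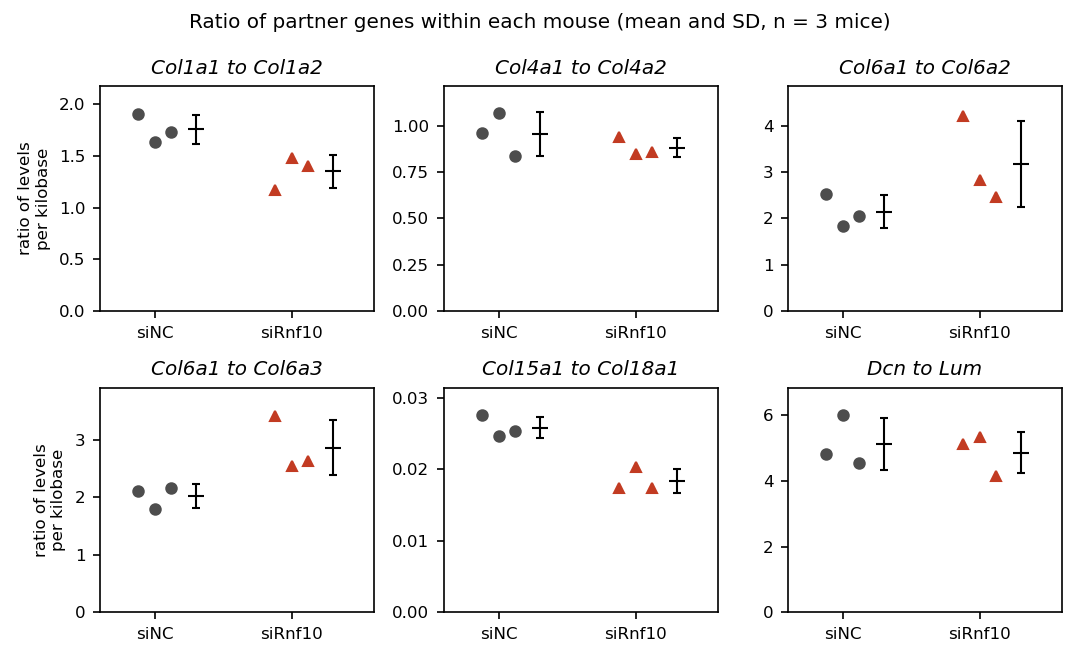
Ratio of the levels per kilobase of 6 pairs of related matrix genes in each mouse, on linear axes that start at 0. Circles are GalNAc-siNC mice, triangles GalNAc-siRnf10 mice, and the bars give the mean and SD (n = 3 mice). Col1a1 to Col1a2 and Col15a1 to Col18a1 are lower, and Col6a1 to Col6a3 higher, in every treated mouse, whereas the other 3 pairs overlap.

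Several of these genes lie next to each other, on a total of 17 chromosomes. Dcn and Lum lie on the same strand of chromosome 10 with 47.0 kb between them. Col6a2 and Col6a1, also on chromosome 10, lie on 1 strand with a gap of 85.2 kb. Col3a1 and Col5a2 lie 24.6 kb apart on opposite strands of chromosome 1. In both, all treated mice were above all control mice, but neither was called. The groups did not overlap in 32.8% of all tested genes. Col4a1 and Col4a2 lie head to head on chromosome 8 and share 22 bases. Matrix genes were longer than the tested genes as a whole, with a median of 6591 bases against 4122.5, and richer in GC, with a median of 53.6% against 49.3%.

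Promoter sequences from RefSeq (GRCm38.p6) were found for 27 of the 38 genes, among them 4 of the 7 called genes. Ecm1, which rose, and Col15a1, which fell, are shown because they changed in opposite directions and because the 250 bases before the RefSeq start lie outside the gene in the deposited annotation. The window of Ecm1 is chr3:95739570-95739819 on the minus strand and that of Col15a1 is chr4:47207762-47208011 on the plus strand, both written 5′ to 3′ along the gene, with motifs in capitals. Motifs were searched on both strands, and the TATA box was spelled TATAAA. The GC box was spelled GGGCGG. The AP-1 site was spelled TGACTCA. The CCAAT box was searched by the letters of its name.
Ecm1: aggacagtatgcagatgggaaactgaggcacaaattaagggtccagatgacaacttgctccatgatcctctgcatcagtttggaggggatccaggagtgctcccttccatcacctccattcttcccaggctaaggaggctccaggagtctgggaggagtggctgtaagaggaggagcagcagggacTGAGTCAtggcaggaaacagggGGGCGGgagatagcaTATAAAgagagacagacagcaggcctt
Col15a1: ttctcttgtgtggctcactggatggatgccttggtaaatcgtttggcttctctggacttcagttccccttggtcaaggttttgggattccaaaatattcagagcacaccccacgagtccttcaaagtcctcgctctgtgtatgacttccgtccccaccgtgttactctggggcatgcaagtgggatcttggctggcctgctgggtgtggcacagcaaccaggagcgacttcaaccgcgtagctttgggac
The Ecm1 window held an AP-1 site 64 to 58 bases before the start, a GC box at 42 to 37 and a TATA box at 27 to 22. None of these letters occurred in the Col15a1 window. The Ecm1 window adjoins the gene of the deposited annotation, but that of Col15a1 ends at 47208011 and the deposited gene starts at 47208161. The bases between were not searched, so the 2 windows are not equivalent. Col6a1 had an AP-1 site 90 to 84 bases before its RefSeq start, and Sparc had none of the 4 motifs in its window. The Sparc window, 55420081 to 55420330, lies inside the deposited gene, which spans 55394500 to 55423183 on the minus strand. The bases before that deposited start were not searched. The Col6a1 window overlaps its deposited gene in part. Among the 27 matrix genes, 2 held an AP-1 site (7.41%), compared with 4.46% of 32851 promoters, and 2 held a TATA box (7.41%), compared with 12.4%. GC boxes stood in 19 (70.4%) against 32.7% of all promoters and CCAAT boxes in 9 (33.3%) against 33.8%. These are matches of letters only and do not show that a factor bound there.

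Wider lists of matrix biology, 7 lists with 198 further genes, had 149 tested genes. Of these, 4 rose and 16 fell, beside 6.71 and 7.28% of all tested genes, and the median log2 fold change was -0.048. Of 13 tested collagens beyond those above, Col6a6 alone was called, with a log2 fold change of -1.45 from a mean of 25.9 normalized counts. Among 15 laminins and other basement membrane genes, Smoc2 alone was called (-0.48). Of 25 genes of collagen folding and processing, P4ha1, a catalytic subunit of prolyl 4-hydroxylase, rose (0.90), and its partner subunit P4hb (-0.23) and the collagen glycosyltransferase gene Colgalt2 (-0.99) fell. Of 21 genes of matrix degradation, 3 metalloproteinase genes fell, Mmp12 (-2.18), Mmp14 (-0.41) and Mmp15 (-0.26). Mmp12 had only 0 to 24 counts in a library, so the size of its change is uncertain.

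Of 22 tested genes of matrix receptors, 5 fell and 1 rose, beside 7.28 and 6.71% of all tested genes, and the list itself was not tested. Itga5, the partner of Itgb1 in the classical fibronectin receptor, had a log2 fold change of -0.30, Itga4, another fibronectin-binding integrin, of -0.70, and Itga6, a laminin-binding integrin, of -0.76. Sdc3 (-0.31) and the laminin receptor gene Dag1 (-0.28) fell too, and Sdc4, a syndecan of hepatocytes, rose (0.22). Of 25 genes of TGF-beta signaling, Smad7, the inhibitory SMAD that TGF-beta induces, alone was called (-0.64). Of 28 other matrix glycoproteins and proteoglycans, Ccn2 and Postn (0.75) rose, whereas Spp1, which encodes osteopontin (-0.90), Spon2 (-0.64) and Vtn, the hepatocyte-derived vitronectin (-0.29), fell.

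Marker lists of liver cell types moved with some of these changes. Their counts of called genes stand beside 6.71% of all tested genes that rose and 7.28% that fell. The hepatocyte list summed to 84739 to 88056 normalized CPM in control livers and 110691 to 113412 in treated livers, and 7 of its 12 genes rose and 1 fell, with Cyp3a11 (log2 fold change 1.19, a gene whose close paralogs can share its reads), Ass1 (0.84), Ttr (0.66) and Alb (0.64) leading and Tf falling (-0.20). Fn1, which hepatocytes make, fell. Stellate cell markers summed to 0.991 to 1.01 times the control mean in control mice and to 1.15 to 1.16 times in treated mice. Of 15 tested genes, 4 were called higher (Colec10 0.50, Vipr1 0.41, Colec11 0.37 and Reln 0.35) and none lower. The log2 fold change was above 0 in 9 of the 15 and below 0 in 6. Lrat, the defining retinoid enzyme, had a log2 fold change of -0.27 and was not called. Gfap did not pass the filter, with at most 10 counts in a library. Sinusoidal endothelial markers summed to 143 to 148 CPM against 165 to 171 CPM, with 4 of 13 higher (Lyve1 0.55, Gpr182 0.55, Ehd3 0.54 and Clec4g 0.52).

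The sums of stellate, endothelial and hepatocyte markers were all higher in treated mice, as were Dcn, Sparc, Col14a1, Col6a1 and Ecm1. Col15a1 and Fn1 were lower. The 3 stellate cell and TGF-beta genes, none of them called, had log2 fold changes from -0.22 to -0.10. The part of the cell types in any of these values was not tested. Markers of Kupffer cells (241 to 298 CPM against 270 to 284 CPM), smooth muscle (72.8 to 81.8 against 73.7 to 77.6) and portal fibroblasts and mesothelium (9.29 to 9.94 against 8.33 to 10.8) overlapped between the groups. They gave no call among 11, 4 and 5 tested genes, beside 14.0% of all tested genes. For Kupffer cells the overlap rested on control mouse 1 (241 CPM). Control mice 2 and 3, with 298 and 285 CPM, were above every treated mouse, mouse 3 by a narrow margin. Of the 11 Kupffer cell genes, 6 had a log2 fold change above 0 and 5 below 0, with a median of 0.015. Cholangiocyte markers summed to 0.9042 to 1.08 times the control mean in control mice and to 0.824 to 0.9037 times in treated mice, so that every treated mouse was lower by a narrow margin, with no call among 5 tested genes.

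**Figure D5:**
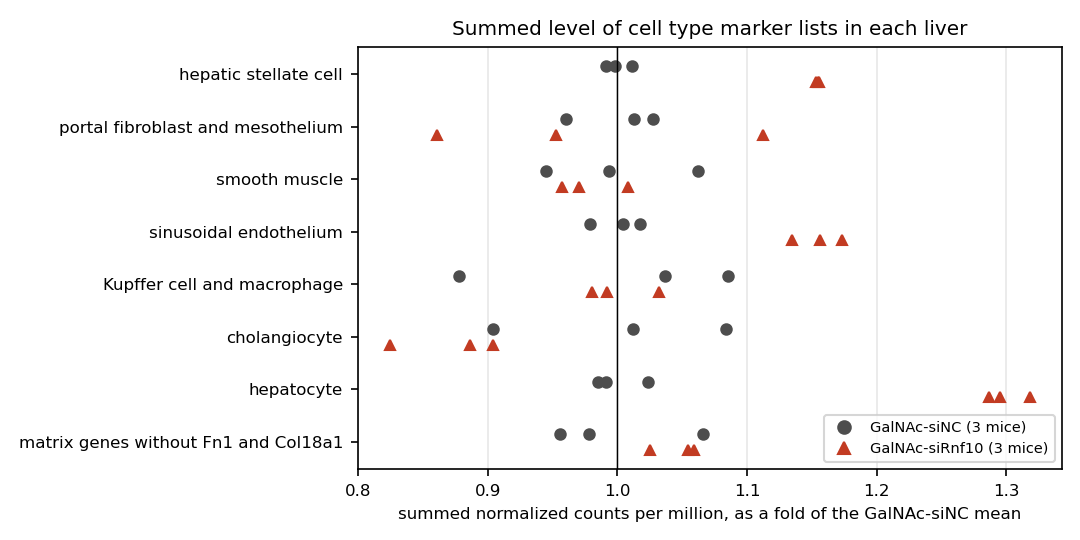
Summed normalized CPM of 7 lists of cell type markers, and of the matrix genes without Fn1 and Col18a1, in each mouse as a fold of the mean of the GalNAc-siNC mice. Circles are GalNAc-siNC mice and triangles GalNAc-siRnf10 mice. Stellate, endothelial and hepatocyte sums are higher in every treated mouse, the cholangiocyte sum is lower in every treated mouse by a narrow margin, and the sum of the matrix genes overlaps between the groups.

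Individual mice also differed across the matrix genes as a whole. GalNAc-siNC mouse 2 had the highest value of its group in 25 of the 36 tested genes, mouse 1 in 8 and mouse 3 in 3. The median deviation of the 36 genes from the control mean, on the log2 scale, was -0.025, 0.13 and -0.049 in the control mice and -0.11, 0.016 and 0.060 in the treated mice, so that the groups overlapped. The median coefficient of variation between mice was 13.8% among control mice and 7.90% among treated mice.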

How the data were processed

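Liver RNA of 6 mice was measured, and each mouse was placed in its group by its treatment label. Libraries were stranded, poly(A)-selected and sequenced as pairs of 150 bases by the authors, mapped to GRCm38 (mm10) with HISAT2 per the submitters' processing notes, and deposited as raw counts per gene without normalization, beside the length of each gene model. The counting tool, its annotation and its strand setting are not given in the sources used here. All columns of counts matched a label. Spans and strands of 54870 of the 55487 identifiers equaled those of GENCODE release M21, which gave symbols for 55141.

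Counts were filtered with filterByExpr by group, normalized by TMM and tested with edgeR 4.0.16 (robust quasi-likelihood F-test, treatment as the only covariate) in R 4.3.3, with Benjamini-Hochberg adjustment over all tested genes. Calls were made at an adjusted p under 0.05. Standard errors were obtained from the F statistic. Normalized counts are TMM-adjusted counts scaled to the mean effective library. Across the 6 libraries, 3 counts make up no more than 1.12e-05% of the total. Intervals of 95% are confidence intervals of the log2 fold change from the edgeR fit, and a biological coefficient of variation of 9.28% was estimated. The study's methods name DESeq2, which was run here as an alternative (version 1.42.0), as were limma 3.58.1 voom, RLE and upper quartile normalization, scaling by library totals, other filters, other thresholds, the mouse number as a block, a correction for GC content and length (splines with 5 degrees of freedom) and leaving out each mouse. A fit on counts halved and rounded up was added after the data were seen. Fits were tested on simulated data.

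The matrix genes and the pathway and marker lists were chosen with earlier results of these data known. Matrix genes described in full are those called and those that the study measured as fibrotic genes (Timp1, Acta2, Col1a1 and Fn1). Further uncalled genes, among them Col18a1, Col3a1, Col1a2, Col5a2, Lamc1, Eln and Lum, are also given mouse by mouse, with their values known. Ccn2, also among those genes of the study, was described in full after its values were seen. Of the other lists, called genes are named, at most 4 in each direction and by size of change, and Lrat, Gfap and the fifth receptor gene that fell were named beyond this. Tables and figures were made with Python 3.11.15, pandas 2.3.3 and matplotlib 3.10.9.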

Additional observations from a re-analysis of the deposited data

How the results depend on the processing

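Fn1, Col15a1, Dcn and Sparc were called in every fit that was run. The number of matrix genes that rose was 5, and it was 3 with scaling by library totals, 2 at an adjusted p under 0.01 and 2 to 5 when 1 mouse was left out. It was 4 with no filter on low counts or with the replicate block, and 6 when GC content and length were corrected for, with or without the block. The number that fell was 2 or 3 in every fit. The median log2 fold change of the matrix genes was -0.033, and it was 0.067 when GC content and length were corrected for, 0.065 with the replicate block as well, and -0.081 to 0.063 without 1 mouse. Counts that were halved gave 5 genes that rose and 2 that fell.

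Some uncalled genes changed sign. Corrected for GC content and length, the log2 fold change was 0.014 for Col5a1, 0.12 for Col5a3, 0.049 for Col4a1, 0.051 for Lamb2, 0.083 for Col6a2, 0.11 for Col6a3 and 0.026 for Tgfbi. With the replicate block as well it was 0.019, 0.12, 0.056, 0.053, 0.074, 0.11 and 0.026 for the same genes in that order. It was -0.034 for Col4a2 and -0.0086 for Nid1 with library totals, and 0.072 for Col6a3 by limma voom. Without 1 mouse, values ran from -0.0065 to 0.22 for Col1a2, -0.31 to 0.017 for Col5a1, -0.13 to 0.10 for Col5a3, -0.23 to 0.054 for Col4a1, -0.041 to 0.085 for Col4a2, -0.28 to 0.019 for Lamb2, -0.051 to 0.14 for Nid1, -0.16 to 0.16 for Col6a2, -0.19 to 0.16 for Col6a3, -0.084 to 0.37 for Fbn1, -0.25 to 0.0029 for Timp3, -0.30 to 0.044 for Acta2 and -0.48 to 0.027 for Des. The cause was not tested.

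Over all genes, 943 rose and 1022 fell, compared with 747 and 1381 with library totals. The calls numbered 1965, and 1053 to 2864 without 1 mouse. The mice of the groups share numbers but are different animals, and same-numbered mice did not deviate together (correlations of -0.00099, 0.027 and -0.034). Of the GalNAc-siNC mice, mouse 2 alone correlated best with the treated mouse of its own number. With the replicate block, 1816 genes were called, and 4 matrix genes rose and 2 fell, Ecm1 being lost (log2 fold change 0.25, edgeR adjusted p = 0.0606). With 3 mice a group, changes of genes at the level of Acta2 or Des were known only within wide intervals, and Timp1 and Lox were too low to test.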
